A study of Mus musculus with 33 samples.

Results

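Genes of the neutrophil granule and antimicrobial program were followed in bone marrow (BM) RNA of mice given venetoclax, ruxolitinib or a vehicle. The genes were those endogenous probes whose name was S100a8, Lcn2, Ltf, Camp, Ctsg, Chil3, Cxcr2 or Cybb. All 8 were present among the 750 endogenous probes of the panel, and each was above background in all 33 lanes. They were described in 13 groups together with their share of the endogenous counts. RNA was counted on the NanoString nCounter, in which a colour-coded probe pair binds each transcript and the barcodes are counted without amplification, 1 lane per mouse. A normalised count is the barcode count divided by the lane's factor from 11 housekeeping probes.

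All mice were female C57BL/6 animals aged 6 to 8 weeks. Venetoclax, an inhibitor of BCL2, was given by gavage each day and ruxolitinib, an inhibitor of JAK1/2, 2 times a day, both for 2 days. The labels give the drugs as 100 and 180 mg/ml, and the methods state the same figures per kg. The venetoclax vehicle was a mixture of phosal, polyethylene glycol and ethanol, and the ruxolitinib vehicle one of DMSO, polyethylene glycol and water. On days 1, 3 and 7 post-treatment there were 3 mice for each drug and 2 for each vehicle, and 3 untreated mice completed the set. Because RNA was taken from whole BM, fewer neutrophils and less RNA of a gene per neutrophil cannot be told apart.

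Neutrophil granule proteins are made in sequence as the cell matures in BM. Serine proteases such as cathepsin G (Ctsg) are packed into the azurophil granules of early precursors. Lactoferrin (Ltf), lipocalin 2 (Lcn2) and the cathelicidin precursor (Camp) fill the specific granules of later precursors. Mature cells carry the chemokine receptor CXCR2 (Cxcr2), which draws them out of BM, and the NADPH oxidase, whose catalytic subunit is encoded by Cybb. S100a8 encodes a subunit of calprotectin, an abundant cytosolic protein that withholds zinc and manganese from microbes, and Chil3 a chitinase-like protein of mouse myeloid cells.

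Since S100a8 was lower and the other 7 genes higher in the vehicle-treated mice of day 7, the promoters of S100a8 and of the 3 specific granule genes are shown. Each is the 250 bases before the transcription start, taken from RefSeq on build GRCm38.p6 and written in the direction of transcription. Capitals mark matches to TTGCNNAA, the core of the motif bound by C/EBP factors, or to GAGGAA, a core bound by PU.1, on either strand.
S100a8 promoter, chr3:90668821-90669070, plus strand: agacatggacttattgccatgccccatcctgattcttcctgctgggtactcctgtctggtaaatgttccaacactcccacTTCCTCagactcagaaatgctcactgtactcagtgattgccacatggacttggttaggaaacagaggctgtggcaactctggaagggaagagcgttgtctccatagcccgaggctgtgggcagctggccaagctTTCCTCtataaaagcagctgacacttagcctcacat
Lcn2 promoter, chr2:32387740-32387989, minus strand: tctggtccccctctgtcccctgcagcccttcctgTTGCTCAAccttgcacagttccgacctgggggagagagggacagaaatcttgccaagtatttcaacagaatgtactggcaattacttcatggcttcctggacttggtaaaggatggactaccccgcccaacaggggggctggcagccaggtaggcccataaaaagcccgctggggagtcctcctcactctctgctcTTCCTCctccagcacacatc
Ltf promoter, chr9:111019042-111019291, plus strand: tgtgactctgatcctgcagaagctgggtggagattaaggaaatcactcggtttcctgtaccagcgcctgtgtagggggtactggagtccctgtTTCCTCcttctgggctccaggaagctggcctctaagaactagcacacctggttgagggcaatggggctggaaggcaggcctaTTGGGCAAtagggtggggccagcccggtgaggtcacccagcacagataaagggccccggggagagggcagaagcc
Camp promoter, chr9:109849457-109849706, minus strand: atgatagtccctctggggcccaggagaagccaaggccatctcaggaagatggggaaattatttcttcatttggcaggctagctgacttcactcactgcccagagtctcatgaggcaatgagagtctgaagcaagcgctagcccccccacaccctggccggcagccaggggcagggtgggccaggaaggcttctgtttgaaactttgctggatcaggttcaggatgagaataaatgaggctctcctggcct

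The search covered 300 bases of each promoter, from 250 before to 50 after the start. All 8 genes had a promoter in the RefSeq table. TTGCNNAA was found in 2 of the 8, Lcn2 and Ltf, against 10.8% of all 32851 promoters. GAGGAA was found in 6 of the 8, S100a8 among them, against 28.3% of all promoters, and it was not in the windows of Camp and Chil3. The motifs did not overlap each other. A match describes the letters of the window only.

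The endogenous total ranged from 18056 to 466096 counts per lane, with a median of 158944, and 2 lanes held under 30000 counts, replicate 1 of venetoclax on day 1 with 18056 and replicate 1 of ruxolitinib on day 3 with 26881. The lowest single count of any of the 8 genes was 10, for Ctsg. The file headers name 3 runs of 11 lanes: run 1 held the day 1 mice, run 2 the day 3 mice and run 3 the day 7 mice, each with 1 untreated mouse, which leaves the effect of a day and that of its run confounded; they cannot be told apart.

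The 8 genes made up most of the counts in the median lane, though not in every lane. Their summed share of the endogenous counts had a median of 64.2% over the 33 lanes. The lowest lane, the untreated mouse of run 3, was at 49.8% (95% Wilson interval 49.3 to 50.3) and the highest, replicate 3 of venetoclax on day 1, at 72.8% (72.5 to 73.1). The intervals cover counting error only. S100a8 alone took from 32.5% to 68.8%, with a median of 55.8%, and was the probe with the highest mean share of all 750. The other 7 genes together took from 3.5% to 18.7%. By mean share over all 33 lanes Camp ranked at 3 with 4.70%, Lcn2 at 4 with 3.82%, Chil3 at 6 with 1.43% and Cybb at 14 with 0.391%. The order of Camp and Lcn2 differed by run, with median shares of 3.94% and 2.18% in runs 1 and 2 and of 6.10% and 7.03% in run 3. Cxcr2 had a mean share of 0.138%, Ctsg of 0.108% and Ltf of 0.0761%. These are shares of barcode counts of single probes that were not corrected for how well each probe binds, so that they do not rank the RNA levels of the genes.

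**Figure D1:**
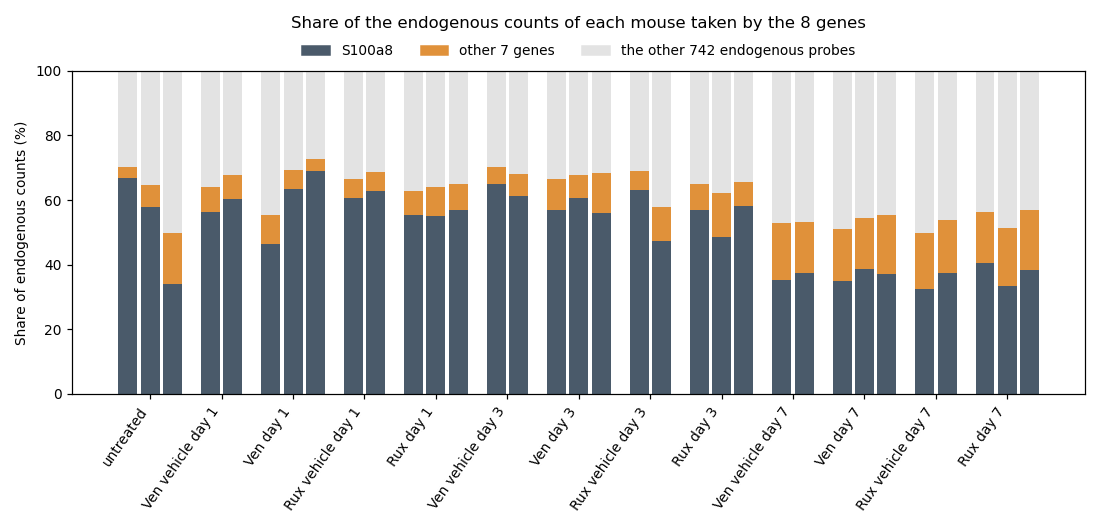
Share of the endogenous barcode counts (%) in each of 33 mice, as stacked bars by group, with S100a8, the other 7 genes and the remaining endogenous probes. In the 11 lanes of run 3 the S100a8 share lay between 32.5% and 40.5% and the share of the other 7 genes between 15.6% and 18.7%.

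The shares split by run. S100a8 took from 46.5% to 68.8% of the counts in the 22 lanes of runs 1 and 2 and from 32.5% to 40.5% in run 3, so that the lanes did not overlap. The other 7 genes took from 3.5% to 13.5% in runs 1 and 2 and from 15.6% to 18.7% in run 3, which did not overlap either. As a share of the counts without S100a8, the 7 genes took from 10.5% to 28.4% in runs 1 and 2 and from 23.98% to 30.3% in run 3.

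Vehicle-treated mice of day 7 were set against those of days 1 and 3 to give this split a size, a comparison chosen after the values were seen. All 8 genes passed edgeR's quasi-likelihood test at an adjusted p-value under 0.05, 7 of them higher on day 7 and S100a8 lower, while 36.6% of all 655 genes passed, 24.1% higher and 12.5% lower. The median log2 fold change of the 8 genes was 1.32, beside 0.14 for all genes tested. That median of all genes was -0.14 to 0.38 under other scalings, and the direction of each of the 8 genes was the same under all of them.

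Of the 8 genes, Ctsg had the widest difference. Its normalised count was 312, 219, 263 and 240 in the 4 vehicle-treated mice of day 7 and from 34.2 to 83.5, with a median of 57.5, in the 8 mice of days 1 and 3. Every day 7 mouse was above every earlier one. The log2 fold change was 2.25 ± 0.33 (SE), with an adjusted p-value of 1.33e-05. Chil3 stood at 3176, 2896, 2755 and 2488 on day 7 and from 625 to 1689, with a median of 1043, on the earlier days, again without overlap (log2 fold change 1.44 ± 0.29, adjusted p = 0.000217).

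Among the specific granule genes, Lcn2, whose protein binds bacterial siderophores, stood at 9725, 7525, 7976 and 7965 on day 7 and from 2007 to 4011, with a median of 2442, earlier. Its log2 fold change was 1.66 ± 0.31 (adjusted p = 0.00014). Ltf, which encodes an iron-binding protein, stood at 182, 140, 119 and 84.0 on day 7 and from 47.9 to 116, with a median of 54.5, earlier. The Ltf groups overlapped, with a log2 fold change of 1.10 ± 0.28 (adjusted p = 0.00226), and without replicate 1 of the ruxolitinib vehicle on day 7 the adjusted p-value was 0.0503. Camp, the precursor of an antimicrobial peptide, stood at 7841, 7365, 7567 and 6709 on day 7 and from 4674 to 6112, with a median of 5191, earlier. Its log2 fold change was the smallest of the 7, at 0.49 ± 0.19 (adjusted p = 0.0419). That call was lost under 6 of 12 alternatives, with an adjusted p-value of 0.292 under TMM scaling, and when any of 10 of the 12 mice was left out. The log2 fold change was as low as 0.22 under the alternatives and between 0.44 and 0.53 with a mouse left out.

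The receptor and the oxidase subunit followed the same direction. Cxcr2 stood at 337, 270, 234 and 273 on day 7 and from 102 to 154, with a median of 112, earlier (log2 fold change 1.25 ± 0.20, adjusted p = 2.5e-05). Cybb stood at 1088, 694, 817 and 646 on day 7 and from 266 to 384, with a median of 306, earlier (log2 fold change 1.38 ± 0.23, adjusted p = 4.4e-05). Both were without overlap between the groups. S100a8 went the other way. It stood at 45332, 46115, 36938 and 42210 on day 7 and from 56604 to 103122, with a median of 88382, earlier, and it fell by 1.00 ± 0.24 on the log2 scale (adjusted p = 0.00139).

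The untreated mice, which were given neither drug nor vehicle, differed by run in the same direction, with 1 mouse in each run. The mouse of run 3 had the lowest S100a8 of them and the highest value of each of the other 7 genes. S100a8 was 102461 and 84264 in the untreated mice of runs 1 and 2 and 42317 in that of run 3. Lcn2 was 982, 2665 and 8511 in the same order, and Ctsg was 32.0, 32.1 and 239. Camp, at 3091, 5498 and 6334, differed more between runs 1 and 2 than between runs 2 and 3. The untreated mouse of run 3 lay within the range of the other lanes of its run for all of the genes but Camp, which at 6334 was the lowest of run 3. The untreated mouse of run 1 had the lowest Lcn2 and Camp of all 33 mice. Ctsg was lowest in the untreated mice of runs 1 and 2, whose share intervals overlapped. The Ctsg value of run 1 rests on 10 barcode counts.

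**Figure D2:**
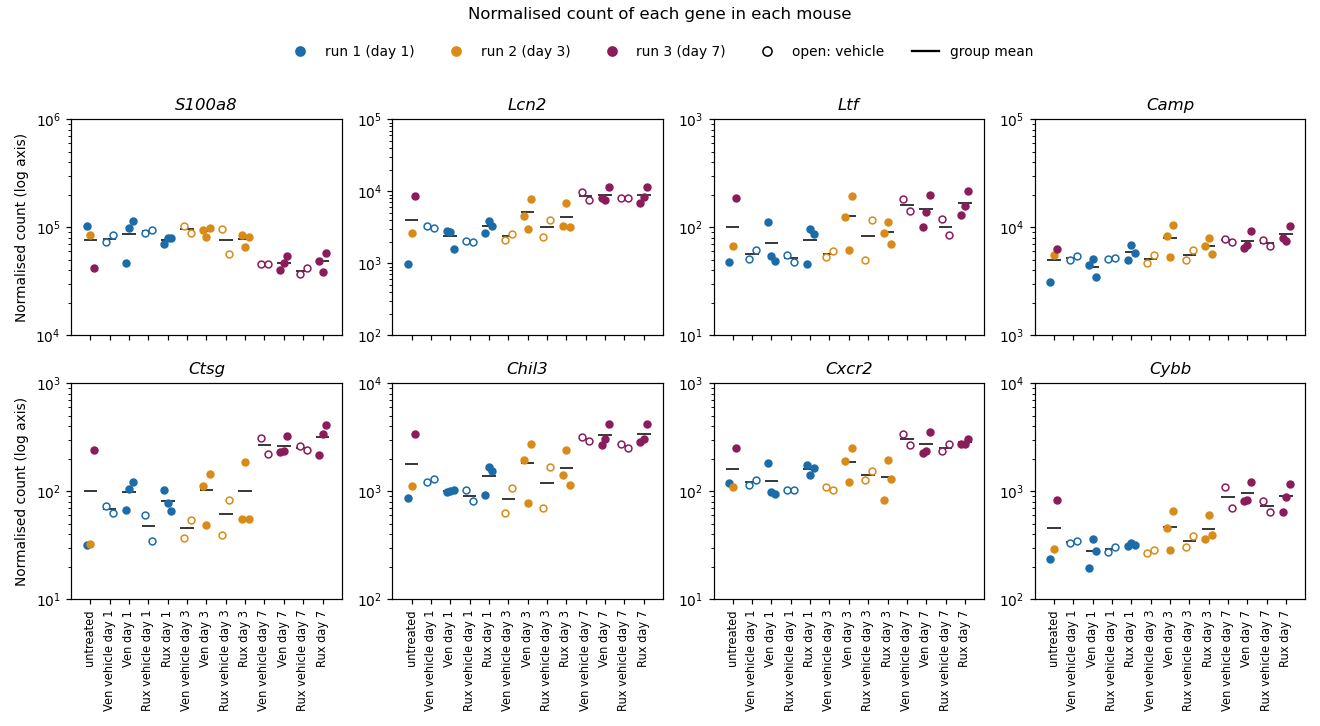
Normalised count of each gene in each mouse by group, on log axes, coloured by run, with open points for vehicle-treated mice and a line at each group mean. In run 3 Ctsg stood between 217 and 410 against 32.0 to 188 in runs 1 and 2, while S100a8 stood between 36938 and 58097 against 46588 to 115548.

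Ordered by group mean, the 4 groups of day 7 were the lowest of the 13 for S100a8. Its means went from 95786 ± 10374 (SD, n = 2) in the venetoclax vehicle on day 3 to 39574 ± 3728 (SD, n = 2) in the ruxolitinib vehicle on day 7. Neighbours in this order overlapped except for the ruxolitinib and venetoclax vehicles of day 7. The 4 groups of day 7 were the highest of the 13 for Lcn2, Ctsg, Chil3, Cxcr2 and Cybb. Lcn2 went from 2030 ± 31.9 (SD, n = 2) in the ruxolitinib vehicle on day 1 to 9030 ± 2156 (SD, n = 3) in venetoclax-treated mice on day 7. Ctsg went from 45.7 ± 12.5 (SD, n = 2) in the venetoclax vehicle on day 3 to 321 ± 97.6 (SD, n = 3) in ruxolitinib-treated mice on day 7. For Ltf and Camp the venetoclax-treated mice of day 3 stood among the day 7 groups, at 127 ± 66.4 and 8039 ± 2606 (SD, n = 3).

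With run 3 set apart, the 7 genes varied together and S100a8 did not follow a single pattern. Because run 3 stood apart, correlations of log2(normalised count + 1) are given over runs 1 and 2 together (22 mice) and within run 3 (11 mice). They are descriptions of lanes that share their scaling factors. Those over runs 1 and 2 also hold any difference between these runs. All 21 pairs among the 7 genes had a positive Pearson r, from 0.493 to 0.926 with a median of 0.711 in runs 1 and 2, and from 0.619 to 0.923 with a median of 0.715 in run 3. Lcn2 and Camp had the highest r in runs 1 and 2, 0.926 (Spearman's rho 0.823). The 7 pairs with S100a8 had an r from -0.42 to 0.0743 in runs 1 and 2 and from 0.407 to 0.753 in run 3. In run 3 Spearman's rho of S100a8 with the 7 genes lay between 0.0273, for Ctsg, and 0.627, for Chil3. For Ctsg this stood beside an r of 0.407, and for Lcn2 rho was 0.173 beside an r of 0.570.

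**Figure D3:**
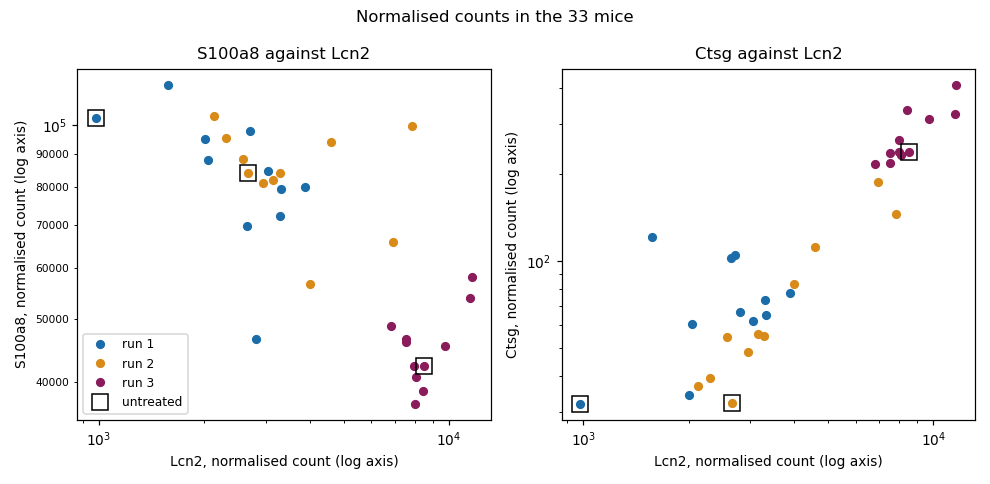
Normalised counts of S100a8 (left) and Ctsg (right) against Lcn2 in 33 mice, on log axes, coloured by run, with squares around the untreated mice. In run 3 Lcn2 was at or above 6808, a range that also holds 2 lanes of run 2 (6936 and 7818), which stood below run 3 in Ctsg and above it in S100a8.

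Other panel genes whose normalised counts averaged 20 or more were ranked by their correlation with each of the 8 over all 33 mice. Those among the closest 3 are named with r over runs 1 and 2 together and within run 3. For S100a8 they were Itch (0.777 and 0.263), Tyk2 (0.675 and 0.226) and Csf3r, the G-CSF receptor (0.697 and 0.723). For Lcn2 they included Lcp1 (0.923 and 0.959) and Stat3 (0.875 and 0.890). For Ctsg they were the azurophil protease Elane (0.842 and 0.876), the azurophil peroxidase Mpo (0.822 and 0.896) and Stat3 (0.789 and 0.762).

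For Chil3 they were Elane (0.873 and 0.701), Lamp2 (0.841 and 0.733) and Clec4a2 (0.891 and 0.799). For Ltf they were Clec4a2 (0.846 and 0.706), the complement receptor C5ar1 (0.796 and 0.870) and Selplg (0.831 and 0.809). For Camp they were Fcgr2b (0.911 and 0.834), Fcer1g (0.874 and 0.544) and Lcp1 (0.95 and 0.603). For Cxcr2 they were Stat3 (0.695 and 0.639), C5ar1 (0.720 and 0.735) and Bst1 (0.644 and 0.688). For Cybb they were Lamp2 (0.834 and 0.892), the granule protease Mmp9 (0.885 and 0.722) and Cd9 (0.837 and 0.768).

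Each drug was next compared with its own vehicle on the same day, where both groups shared a run. None of the 8 genes passed the test in any of the 6 comparisons. Of all 655 genes, 0.153% passed for venetoclax on day 1, 0% on day 3 and 0.153% on day 7. For ruxolitinib 2.75% passed on the first of these days and 0.153% on each of the others. These numbers of all genes moved with the setting. For venetoclax on day 1, 1 gene passed here, 0 with TMM scaling and 25 with both vehicles pooled as control. For ruxolitinib on day 3, 1 passed here and 10 with pooled vehicles. For venetoclax on day 3, 70 genes had an unadjusted p-value under 0.05, DESeq2 called 1 gene and limma 0.

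The widest differences were those of venetoclax on day 3. All 7 genes other than S100a8 were at an unadjusted p-value under 0.05 and higher in venetoclax-treated mice, where 6.41% of all genes were, but their adjusted p-values lay between 0.312 and 0.453. The median log2 fold change of the 8 genes was 0.97, beside 0.06 for all genes. Lcn2, Ltf and Cxcr2 did not overlap between the groups and were higher, as were 13% of all genes. None was lower without overlap, where 13.1% of all genes were.

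Lcn2 stood at 4604, 2949 and 7818 in venetoclax-treated mice and at 2134 and 2582 with the vehicle on day 3 (log2 fold change 1.12 ± 0.50 SE, adjusted p = 0.410). Ltf stood at 124, 61.8 and 194 against 53.0 and 60.4, with a log2 fold change of 1.16 ± 0.43 (adjusted p = 0.312). Camp stood at 8262, 5328 and 10525 against 4674 and 5483 (log2 fold change 0.66 ± 0.29, adjusted p = 0.410). In all 3 specific granule genes replicates 3 and 1 were above both vehicle-treated mice, while replicate 2 lay closest to them.

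The same 2 mice were high in the other genes. Ctsg stood at 112, 48.4 and 145 against 36.9 and 54.5 (log2 fold change 1.14 ± 0.55, adjusted p = 0.453). Chil3 stood at 1945, 774 and 2754 against 625 and 1069 (log2 fold change 1.10 ± 0.46, adjusted p = 0.410). Cxcr2 stood at 192, 123 and 250 against 110 and 102 (log2 fold change 0.84 ± 0.32, adjusted p = 0.312). Cybb stood at 459, 283 and 662 against 266 and 283 (log2 fold change 0.77 ± 0.37, adjusted p = 0.453). S100a8 stood at 94112, 81220 and 99487 against 103122 and 88451, with overlap and a log2 fold change of -0.06 ± 0.34 (adjusted p = 0.972), which was from -0.20 to 0.10 over the alternatives.

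Leaving out replicate 3 of venetoclax on day 3 lowered the log2 fold changes of the 7 genes to between 0.42 and 0.79, and leaving out replicate 2 raised them to between 0.89 and 1.48, with adjusted p-values from 0.0851 to 0.185. Without the untreated mice, a choice made after the values were seen, the adjusted p-values were from 0.126 to 0.203. Other settings gave adjusted p-values of up to 0.869 over the alternatives and 0.986 with a mouse left out. Summed markers of other cells also differed between these groups. The summed normalised count of the 8 T cell markers was from 37.4 to 48.4 in venetoclax-treated mice and from 81.0 to 106 in vehicle-treated mice, all 8 with a log2 fold change below 0, and no marker of that list was above background in every lane. The 8 NK cell markers, none of which was above background in every lane either, summed to between 69.0 and 81.4 against 49.6 to 61.9. The 3 megakaryocyte markers summed to between 144 and 182 against 194 to 229. The other lists overlapped, with the 8 monocyte and macrophage markers between 475 and 667 against 542 to 558. None of these markers passed the test on day 3, and their part in the differences of the granule genes was not tested.

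**Figure D4:**
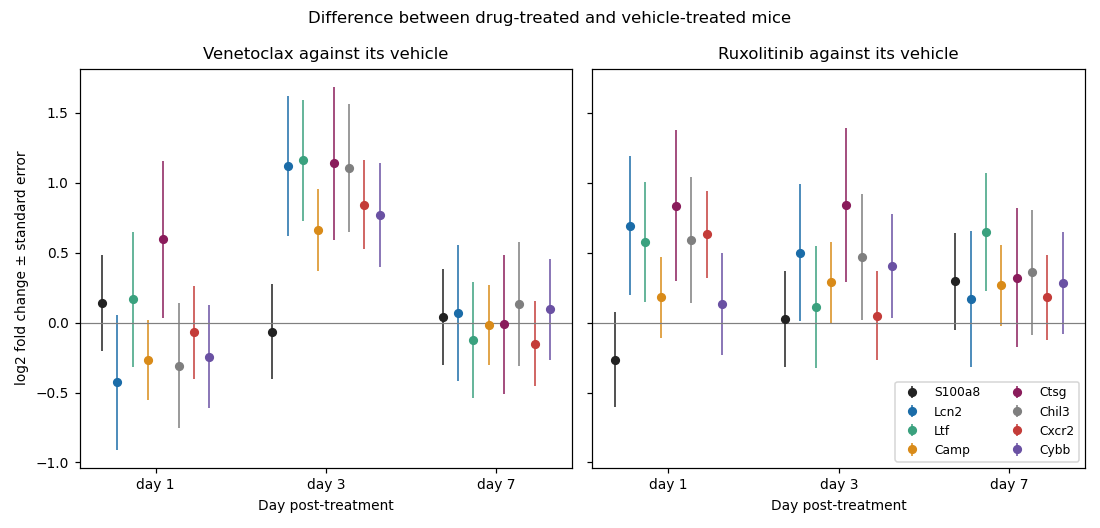
Log2 fold change of each gene between drug-treated and vehicle-treated mice on each day, with standard errors from the fit, for venetoclax (left) and ruxolitinib (right). The 7 genes other than S100a8 stood at 0.66 to 1.16 for venetoclax on day 3, and no value on the plot passed the test.

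On day 1 venetoclax-treated mice were lower than vehicle-treated mice without overlap in 2 of the 8 genes, where 15.7% of all genes were, and higher in none, where 11.8% were. Lcn2 stood at 2812, 2708 and 1574 in venetoclax-treated mice and at 3295 and 3048 in vehicle-treated mice (log2 fold change -0.43 ± 0.48, adjusted p = 0.843). Chil3 stood at 993, 1014 and 1035 against 1207 and 1303 (log2 fold change -0.31 ± 0.44, adjusted p = 0.869). Without the lane of 18056 counts the values were -0.56 and -0.29, and without replicate 3 of venetoclax the value of Lcn2 was -0.20. With both vehicles of day 1 pooled as control they were -0.10 and -0.076. Ctsg stood at 66.6, 105 and 121 against 73.4 and 62.1, a log2 fold change of 0.59 ± 0.56 (adjusted p = 0.824). Marker lists of 3 other cell types did not overlap on day 1 either, although none of their markers passed the test. The 9 B lineage markers summed to between 505 and 514 in venetoclax-treated mice against 551 to 697, the 1 erythroid marker to between 266 and 283 against 417 to 474, and the monocyte and macrophage markers to between 615 and 675 against 501 to 591. Their part in the differences of Lcn2 and Chil3 was not tested. On day 7 all 8 genes overlapped between venetoclax and its vehicle, where 6.56% of all genes were higher and 10.7% lower without overlap, and the log2 fold changes lay between -0.15 and 0.13.

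Ruxolitinib-treated mice of day 1 were higher than vehicle-treated mice without overlap in 4 genes, Lcn2, Ctsg, Cxcr2 and Cybb, where 27.6% of all genes were, and lower in S100a8 alone, where 16.3% were. Lcn2 stood at 2644, 3885 and 3317 against 2052 and 2007 (log2 fold change 0.69 ± 0.49, adjusted p = 0.597), and the fold change was 0.37 with both vehicles pooled as control. Ctsg stood at 103, 77.5 and 65.1 against 60.4 and 34.2 (log2 fold change 0.84 ± 0.54, adjusted p = 0.549), and the fold change was 0.43 without replicate 2 of the vehicle and 1.25 without replicate 1. Cxcr2 stood at 174, 141 and 166 against 103 in both vehicle-treated mice (log2 fold change 0.63 ± 0.31, adjusted p = 0.367). In a fit of these 5 mice alone Lcn2, Ctsg and Cxcr2 passed the test, with adjusted p-values of 0.00842, 0.0185 and 0.00621, as did 77 genes in place of 18.

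The other differences of ruxolitinib on day 1 were smaller. Cybb stood at 309, 329 and 317 against 275 and 306 (log2 fold change 0.13 ± 0.36, adjusted p = 0.917). The fold change lay between 0.058 and 0.21 with each mouse left out and was -0.016 with the replicate number as a block. S100a8 stood at 69619, 80143 and 79548 against 88312 and 95274 (log2 fold change -0.26 ± 0.34, adjusted p = 0.773), with values from -0.34 to -0.15 over the alternatives. Summed markers of other cells differed here without overlap, although none of the markers named next passed the test. The NK cell markers, none of which was above background in every lane, summed to between 39.9 and 41.3 in ruxolitinib-treated mice against 57.7 to 65.4, and the 6 markers of eosinophils, basophils and mast cells to between 277 and 409 against 615 to 693. The erythroid marker was also lower, at 259 to 355 against 401 to 441. T cell markers were higher at 76.4 to 82.6 against 65.9 to 68.8, and the 4 stem and progenitor markers at 52.6 to 58.0 against 29.3 to 46.6. None of the T cell or the stem and progenitor markers was above background in every lane. Kit was counted among the latter and also among the markers of eosinophils, basophils and mast cells. The part of all these markers in these differences was not tested.

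On day 3 all 8 genes overlapped between ruxolitinib and its vehicle, where 7.63% of all genes were higher and 7.94% lower without overlap. The log2 fold changes lay between 0.02 for S100a8 and 0.84 for Ctsg, and replicate 2 of ruxolitinib was the highest of the 5 mice in Lcn2, Camp, Ctsg, Chil3, Cxcr2 and Cybb. Ctsg stood at 55.03, 188 and 55.8 against 39.2 and 83.5, and without replicate 2 of ruxolitinib its log2 fold change was -0.18. In these mice the B lineage markers summed to between 312 and 413 with ruxolitinib against 732 to 747, all 9 with a log2 fold change below 0 and 1 past the test, and the erythroid marker to between 487 and 641 against 347 to 379. Their part in the values of the 8 genes was not tested. On day 7 3 of the 8 genes were higher without overlap, where 8.09% of all genes were, and none was lower, where 9.62% were. Ltf stood at 130, 159 and 217 against 119 and 84.0 (log2 fold change 0.65 ± 0.42, adjusted p = 0.999). Chil3 stood at 2850, 3052 and 4212 against 2755 and 2488 (log2 fold change 0.36 ± 0.45), and Cxcr2 at 276, 276 and 308 against 234 and 273 (log2 fold change 0.18 ± 0.31), both with an adjusted p-value of 0.999. With each of these mice left out in turn, the fold change lay between 0.46 and 0.96 for Ltf, 0.17 and 0.47 for Chil3 and 0.065 and 0.29 for Cxcr2. It was as low as 0.32 for Ltf with both vehicles pooled as control, 0.15 for Chil3 with the replicate number as a block and 0.014 for Cxcr2 with total count scaling. In the same mice the B lineage markers summed to between 454 and 521 with ruxolitinib against 702 to 709, and those of eosinophils, basophils and mast cells to between 304 and 317 against 254 to 296. None of these markers passed the test, and their part in the differences was not tested.

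Averaged over the 3 days, none of the 8 genes passed the test for venetoclax, where 2.9% of all genes did, or for ruxolitinib, where 1.22% did. All 8 log2 fold changes were above 0 for both drugs, with medians of 0.23 for venetoclax and 0.37 for ruxolitinib beside 0.04 and 0.03 for all genes. The highest were those of Ctsg, at 0.57 ± 0.31 (SE, adjusted p = 0.585) for venetoclax and 0.67 ± 0.31 (adjusted p = 0.512) for ruxolitinib. The former was 0.38 with the replicate number as a block, and the latter 0.33 without replicate 2 of ruxolitinib on day 3. S100a8 stood at 0.04 ± 0.20 and 0.02 ± 0.20. Some markers of other cells passed the test in the same averages. For venetoclax all 8 T cell markers were below 0, with a median of -0.63, and 2 of them passed the test, as did 1 of the 9 B lineage markers, while 4 of the 8 NK cell markers were below 0 and none passed. For ruxolitinib 8 of the 9 B lineage markers were below 0, with a median of -0.44, and 2 passed. Their part in the values of the granule genes was not tested.

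The difference between the drugs was tested on each day as the venetoclax change minus the ruxolitinib change. None of the 8 genes passed, where 1.68% of all genes did on day 1, 0.153% on day 3 and 0.305% on day 7. The widest was Lcn2 on day 1 at -1.12 ± 0.69 (SE, adjusted p = 0.494), with every venetoclax-treated mouse below and every ruxolitinib-treated mouse above its vehicle. On day 3 Ltf stood at 1.05 ± 0.61 (adjusted p = 0.999), and at 0.29 without replicate 2 of the ruxolitinib vehicle. The change on day 7 minus that on day 1 passed for none of the 8 genes with venetoclax, where 0% of all genes did by edgeR, DESeq2 or limma and 37 had an unadjusted p-value under 0.05, or with ruxolitinib, where 1.53% did.

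The control groups were also compared with each other. Between the vehicles of the 2 drugs none of the 8 genes passed, where 0% of all 655 genes did and 18 had an unadjusted p-value under 0.05, and the log2 fold changes lay between -0.01 and 0.11. Between the 6 vehicle groups and the untreated mice none of the 8 passed, where again 0% of all genes did and 75 had an unadjusted p-value under 0.05. DESeq2 called 0 genes in both comparisons, and limma 0 in the first and 1 in the second. The log2 fold changes lay between -0.30 for Chil3 and 0.24 for Camp. Within runs the mean of the 4 vehicle-treated mice minus the untreated mouse was 1.37, 0.0035 and -0.04 for Lcn2 in runs 1, 2 and 3, on the scale of log2(normalised count + 1). Ctsg was higher with the vehicle in each run, at 0.77, 0.64 and 0.098, beside 0.06 ± 0.43 (SE) in the fit. Each of the other genes had both signs. With the run as a block, 0 of the 8 genes passed.

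Beside the 8 genes, 41 other genes that neutrophils express or whose products act on them, here called neutrophil genes, were on the panel and 36 of them were tested. Between vehicle-treated mice of day 7 and those of days 1 and 3, 17 of the 36 rose, where 24.1% of all genes did, and 4 fell, where 12.5% did. The median log2 fold change was 0.62, beside 0.14 for all genes. Among granule proteins, the azurophil peroxidase Mpo rose from 966 ± 365 (SD, n = 8) to 3361 ± 414 (SD, n = 4), a log2 fold change of 1.84 ± 0.28 (SE, adjusted p = 1.46e-05). Neutrophil elastase (Elane) rose from 141 ± 67.3 to 740 ± 107 (log2 fold change 2.42 ± 0.36, adjusted p = 1.43e-05). Among receptors, the low-affinity IgG receptor Fcgr3 rose by 2.07 ± 0.28 (adjusted p = 4.06e-06) and the complement receptor C5ar1 by 0.91 ± 0.21 (adjusted p = 0.00117), both on the log2 scale.

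The 4 that fell were Csf3r, Csf2rb, Csf3 and Gfi1. The G-CSF receptor Csf3r fell by 0.68 ± 0.19 (adjusted p = 0.00564) and Gfi1, a repressor needed for neutrophil differentiation, fell by 1.01 ± 0.23 (adjusted p = 0.00086). Stat3, which carries the G-CSF signal, rose by 1.24 ± 0.21 (adjusted p = 4.38e-05). Summed markers of other cells differed in this comparison as well: the 8 monocyte and macrophage markers summed to between 670 and 826 on day 7 and to between 501 and 628 earlier, and the 4 stem and progenitor markers to between 89.9 and 114.8 against 29.3 to 82.7. Of these, 5 of the 8 monocyte and macrophage markers and 3 of the 4 stem and progenitor markers rose, where 24.1% of all genes did. None of the stem and progenitor markers was above background in every lane. Kit was counted among them and also among the markers of eosinophils, basophils and mast cells. Of the 9 B lineage markers 4 rose and 3 fell, and of the 6 markers of eosinophils, basophils and mast cells 3 rose and 1 fell, where 36.6% of all genes changed. The latter 6 summed to a median of 297 on day 7 and 533 earlier, with overlap. All 3 megakaryocyte markers were below 0, with a median log2 fold change of -0.48, and 1 fell. Of the 8 T cell and the 8 NK cell markers, 1 each rose. The part of all these markers in the rise of the granule genes was not tested.

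Of the 36 other neutrophil genes 1 passed for ruxolitinib on day 1, where 2.75% of all genes did, and it was the only one to pass in the comparisons of a drug with its vehicle. It was Cxcl12, a chemokine gene of marrow stromal cells that is listed as a ligand acting on neutrophils and is not a gene of neutrophils themselves. It stood at 198 ± 23.6 (SD, n = 3) in ruxolitinib-treated mice on day 1 and 51.7 ± 1.91 (SD, n = 2) with the vehicle (log2 fold change 1.93 ± 0.43 SE, adjusted p = 0.0053), and its mean over the 3 days was 1.12 ± 0.25 (adjusted p = 0.0104). For venetoclax on day 3 the 2 widest differences were Fcgr3, at 46.3 ± 28.3 against 11.8 ± 2.04 (log2 fold change 1.95 ± 0.49, adjusted p = 0.0817), and Elane, at 268 ± 148 against 94.98 ± 46.3 (log2 fold change 1.47 ± 0.60, adjusted p = 0.409). Of the 36 genes 28 had a log2 fold change above 0 in that comparison, with a median of 0.37.

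On day 1 Gfi1 stood at 81.7 ± 26.6 in venetoclax-treated mice and 41.9 ± 1.79 in vehicle-treated mice (log2 fold change 0.96 ± 0.32, adjusted p = 0.114), and Il1rn, the interleukin-1 receptor antagonist, at 19.6 ± 2.41 against 33.6 ± 5.86 (log2 fold change -0.85 ± 0.43, adjusted p = 0.514). On day 7 the widest with venetoclax were Cxcl12 at 0.78 ± 0.46 and Csf2rb at -0.33 ± 0.30 (log2 fold change ± SE). With ruxolitinib they were Elane at 0.83 ± 0.58 and Cxcl12 at 0.83 ± 0.43 on day 3, and Il1b at 0.78 ± 0.37 and Cxcl12 at 0.60 ± 0.42 on day 7. Their adjusted p-values were 0.997 or above.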

How the data were processed

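Total BM RNA of 33 mice was measured on the NanoString nCounter. The authors deposited raw barcode counts, 1 lane per mouse, for 750 endogenous, 20 housekeeping, 8 negative and 6 positive control probes. The deposited counts are whole numbers with a lowest value of 1 and precede the normalisation of nCounter Advanced Analysis that the methods name. The panel is named differently in the methods (PanCancer Immune Profiling) and in the design text (immunology). Groups came from the deposited labels and runs from the file headers, which read day 2 for the run of the day 3 mice. The 8 genes and the gene lists were chosen with earlier results of these data known.

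Scaling factors were geometric means over those 11 housekeeping probes that exceeded background in all lanes. Background was set per lane at 2 SD over the mean of the negative probes (median 4.83 counts). A gene had to exceed background in 2 or more lanes, which left 655 genes. These entered edgeR 4.0.16 (R 4.3.3), whose quasi-likelihood test was run on a single model with a mean for each of the 13 groups and Benjamini-Hochberg adjustment over all genes and a threshold of 0.05. Standard errors were taken from the log2 fold change and its F statistic. The biological coefficient of variation was 20.2%, with 20 residual degrees of freedom. A fold change with its values is printed for a gene whose groups did not overlap or whose unadjusted p-value was under 0.05, and other values by their range or where they complete a group. Other neutrophil genes are named where they passed the test, otherwise the 2 with the widest change at a mean normalised count of at least 20; of the 21 that passed between days in vehicle-treated mice, examples are named. Of the 3 genes most like each of the 8, 1 is not reported here. The fold changes of Ctsg on day 1 and S100a8 on day 3 of venetoclax and of Ctsg on day 3 of ruxolitinib were added to these after the values were seen.

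Alternatives were TMM scaling, total counts with and without the 8 genes, all 20 housekeeping probes, DESeq2 1.42.0, limma 3.58.1, other count filters, the groups compared alone, the replicate number as a block, pooled vehicles, the run as a block, lanes over 30000 counts and each mouse left out.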

Additional observations from a re-analysis of the deposited data

Results flagged for a closer look

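For Lcn2 on day 1 the mice of the 2 drugs lay on opposite sides of their vehicles, although neither change passed the test. All 3 venetoclax-treated mice were below both of their vehicle-treated mice and all 3 ruxolitinib-treated mice were above theirs. The venetoclax change minus the ruxolitinib change was -1.12 ± 0.69 on the log2 scale (edgeR, adjusted p = 0.494), so that the difference did not pass the test. The vehicle groups themselves stood apart, at 3295 and 3048 normalised counts for venetoclax and 2052 and 2007 for ruxolitinib, while the drug-treated mice overlapped, at 1574 to 2812 and 2644 to 3885. With both vehicles pooled as control the changes were -0.10 for venetoclax and 0.37 for ruxolitinib. The difference itself was not computed with pooled vehicles. Over the 12 alternatives that were run for it, it lay between -1.26 and -1.05, with adjusted p-values from 0.0435 to 0.670. Leaving out each mouse gave -1.26 to -0.89.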

How the results depend on the processing

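The count of the 8 genes that passed was 0 in each of the 15 planned comparisons and remained 0 under the alternatives run, with 2 exceptions. In a fit of the groups compared alone, 3 passed for ruxolitinib on day 1, as did 77 of all 655 genes, and 1 passed where the drugs were set against each other on day 1, as did 61 of all genes. That fit rests on few mice, and the cause was not tested. With the replicate number as a block, the log2 fold change of Cybb for ruxolitinib on day 1 was -0.016 in place of 0.13. That of S100a8 for venetoclax on day 3, -0.06, was 0.014 with all 20 housekeeping probes, 0.10 with pooled vehicles and from -0.17 to 0.051 with each mouse left out. That of Ctsg for ruxolitinib on day 3, 0.84, was from -0.18 to 1.52 with each mouse left out. The block changed no other direction or call among the results printed. The replicate numbers are shared between groups, but over the 12 pairs of drug-treated and vehicle-treated mice of a day the correlation of deviations was over 0.1 in 4, from -0.35 to 0.30, and no source states a pairing. In the comparison of day 7 with days 1 and 3, 7 or 8 genes passed under each of the 12 alternatives and from 6 to 8 with each mouse left out, the 6 being without replicate 1 of the ruxolitinib vehicle on day 7. Camp was the gene lost under the alternatives. Without the untreated mice the counts of the 8 genes were the same. The median share of the 8 genes was 64.8% after subtracting the mean negative control and 61.8% with housekeeping counts in the total. Lanes under 30000 counts hold 10 to 20 counts of Ltf and Ctsg, which limits their precision there.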
